A study of Mus musculus with 6 samples.

Results

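TGF-beta and bone morphogenetic protein (BMP) signalling genes were examined in the whole aorta of wild type (WT) mice and of mice heterozygous for a knockout of Npr1 (Npr1+/-). The 39 genes comprised ligands, receptors, Smad proteins, antagonists and target genes. They were listed by name and found in the deposited table by their NCBI gene number, and all 39 were among its 18191 genes. All animals were male, with 3 libraries per genotype, and the Npr1+/- line was made by CRISPR-Cas9. The age of the animals was not given in the sources used here, and WT and Npr1+/- differed by genotype alone in the labels. Npr1 encodes a receptor for natriuretic peptides that makes cyclic GMP. RNA of the whole vessel was sequenced on the BGISEQ-500 platform, so endothelium, smooth muscle, adventitia and adherent tissue were measured together.

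TGF-beta ligands, activins and BMPs are secreted dimers that bring a type II and a type I serine/threonine kinase receptor together. The type I receptor then phosphorylates receptor Smads: Smad2 and Smad3 after TGF-beta or activin, and Smad1, Smad5 and Smad9 after BMP. These Smads bind Smad4 and act on target genes in the nucleus, where the BMP arm induces Id1, Id2 and Id3. In the arterial wall this signalling is known for its role in smooth muscle differentiation, extracellular matrix and endothelial quiescence, and inherited defects of Tgfbr1, Tgfbr2, Smad3 or Tgfb2 cause aortic aneurysm in people.

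No member passed the test between the genotypes. The count at an adjusted p under 0.05 and a log2 fold change of at least 0.5 was 0 of 38 tested members in edgeR, as it was for all 13938 genes tested (0%). It was also 0 of the members in edgeR with the library number as a block, in DESeq2, where 0.0883% of all genes were called, and in DESeq2 with the block, where 1.46% were. The largest differences without the block were higher values of 2 secreted antagonists, Fst and Nog, at log2 fold changes of 0.98 each. These were the 2 of 38 members (5.26%) with an unadjusted p under 0.05 in edgeR, against 2.96% of all tested genes in either direction and 1.88% with higher values in Npr1+/-. The paired fit matched libraries by their numbers, although the labels state no shared batch or litter. In it 8 members (21.1%) had an unadjusted p under 0.05, against 12.4% of all genes. Of these, Bmp4, Acvrl1, Fst and Nog had higher values in Npr1+/- (7.36% of all genes did), and Bmpr1a, Bmpr1b, Smad9 and Bambi had lower values (5.09% of all genes did).

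Facts of the series bear on these values. Libraries held 13510970 to 16664343 expected counts. Npr1, the targeted gene, was at 112, 153 and 152 FPKM (fragments per kilobase of transcript and per unit of sequencing depth) in WT libraries 1, 2 and 3 and at 70.4, 110 and 133 FPKM in the Npr1+/- libraries. It was lower in Npr1+/- in each same-numbered pair, but the groups overlapped, with a log2 fold change of -0.41 ± 0.27 (SE) in edgeR and an exact two-sided permutation p of 0.2, where the smallest possible is 0.1. With the block the log2 fold change was -0.44 ± 0.15 (edgeR unadjusted p = 0.0221, adjusted p = 0.311), and without the block and without Npr1+/- 1 it was -0.22. In both genotypes library 1 stood apart. White fat marker sums were 6855 FPKM in WT 1 against 1398 and 1807 FPKM in WT 2 and 3, and 10816 FPKM in Npr1+/- 1 against 3699 and 3142 FPKM. Smooth muscle marker sums were lowest in the same libraries, at 8475 FPKM in WT 1 and 4923 FPKM in Npr1+/- 1, against 13373 to 14902 FPKM in the others. Npr1+/- 1 also held Th and Dbh, enzymes of catecholamine synthesis, at 38.97 and 56.2 FPKM, whereas the other 5 libraries were at 0.25 FPKM or less. All 8 endothelial markers had higher fitted values in Npr1+/- (summed FPKM 276 to 382 against 149 to 234 in WT), and none passed the adjusted test. In whole tissue, a difference in the number of cells of a type and a difference in RNA per cell cannot be told apart.

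Promoter sequence is shown for the 4 of the 8 members above with a RefSeq start-site window (GRCm38.p6) among those kept. Windows of 25 of the 39 members were kept, and Fst, Nog, Acvrl1 and Bambi have none among them. Member windows were filtered by chromosome, so a missing window does not show that a gene such as Bambi lacks one in RefSeq. The stretches run 5′ to 3′ on the strand of the gene, within the 250 bases before an annotated start, and were trimmed to stretches free of annotated exons. Capitals mark GGCGCC, a motif bound by BMP-activated Smads, or CAGAC and its complement GTCTG, the Smad3 and Smad4 element; both were searched on both strands and do not overlap each other. Bmpr1b has 3 windows, of which 1 is shown, and the GGCGCC of the Smad9 window lies outside the stretch shown. The Bmpr1a and Bmpr1b stretches lie inside the annotated spans of their genes (chr14:34411061-34503336 and chr3:141837135-142169585), and not before the 5′ ends of these spans. Over the full windows, GC content was 78.8% for Bmpr1a and 46.8% for the Bmpr1b window shown, both type I receptor genes for BMPs. The other Bmpr1b windows had 52.8% and 56.4%.
Bmp4 (chr14:46390670-46390919, minus strand): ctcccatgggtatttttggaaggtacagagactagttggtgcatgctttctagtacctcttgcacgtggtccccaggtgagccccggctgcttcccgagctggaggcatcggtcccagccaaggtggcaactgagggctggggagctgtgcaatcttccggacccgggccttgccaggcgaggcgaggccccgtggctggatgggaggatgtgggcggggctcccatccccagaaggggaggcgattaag
Bmpr1a (chr14:34502688-34502796, minus strand): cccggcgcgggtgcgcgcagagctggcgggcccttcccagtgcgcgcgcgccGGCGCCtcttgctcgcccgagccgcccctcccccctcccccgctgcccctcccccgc
Bmpr1b (chr3:141982265-141982514, minus strand): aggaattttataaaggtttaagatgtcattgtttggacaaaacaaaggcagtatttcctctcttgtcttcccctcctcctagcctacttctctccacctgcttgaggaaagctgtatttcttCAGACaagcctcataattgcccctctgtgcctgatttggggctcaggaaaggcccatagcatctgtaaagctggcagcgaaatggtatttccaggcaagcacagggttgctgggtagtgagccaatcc
Smad9 (chr3:54755332-54755454, plus strand): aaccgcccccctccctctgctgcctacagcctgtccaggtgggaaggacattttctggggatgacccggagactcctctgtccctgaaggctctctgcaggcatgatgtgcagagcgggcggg
Over the full 250 bases, GGCGCC was present in 8 of 30 member windows (26.7%) and in 9.59% of all 32851 windows, which were not filtered by chromosome. CAGAC was present in 12 of 30 (40%) and in 42.2%. Member windows had a median GC content of 66.6% against 52.4% over all windows. A match is a description of the letters and not of binding.

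All 3 TGF-beta ligands were detected in every library, and Tgfb3 had the highest FPKM of them throughout, with 52.0% to 59.5% of the summed TGF-beta ligand FPKM. Tgfb3 was at 43.0, 87.2 and 76.0 FPKM in WT 1, 2 and 3 and at 43.7, 101 and 77.3 FPKM in Npr1+/- 1, 2 and 3. Low and high libraries matched by number and not by genotype. Tgfb2 had the same order to a larger degree, with 9.13 FPKM in WT 1 and 11.1 FPKM in Npr1+/- 1 against 22.4 to 41.4 FPKM in the other 4 libraries. Tgfb1 did not have it, at 28.1 to 33.5 FPKM in WT and 28.0 to 36.0 FPKM in Npr1+/-. The log2 fold changes of the 3 ligands lay between 0.06 and 0.11. The SE was 0.15 for Tgfb1, 0.60 for Tgfb2 and 0.37 for Tgfb3. With the block it was 0.19 for Tgfb2 and 0.13 for Tgfb3, around log2 fold changes of 0.10 for both. Leaving out single libraries moved the log2 fold change of Tgfb2 from -0.49 to 0.44 and that of Tgfb3 from -0.19 to 0.36.

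Among activin subunits, Inhba was at 5.74, 12.2 and 7.08 FPKM in WT and at 4.23, 10.5 and 10.5 FPKM in Npr1+/-. Its groups overlapped, and the mean was 8.32 ± 3.38 FPKM in WT and 8.39 ± 3.60 FPKM in Npr1+/- (SD, n = 3). Inhbb, the other beta subunit measured, had 2.46 ± 0.57 FPKM in WT and 2.39 ± 0.07 FPKM in Npr1+/-.

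**Figure D1:**
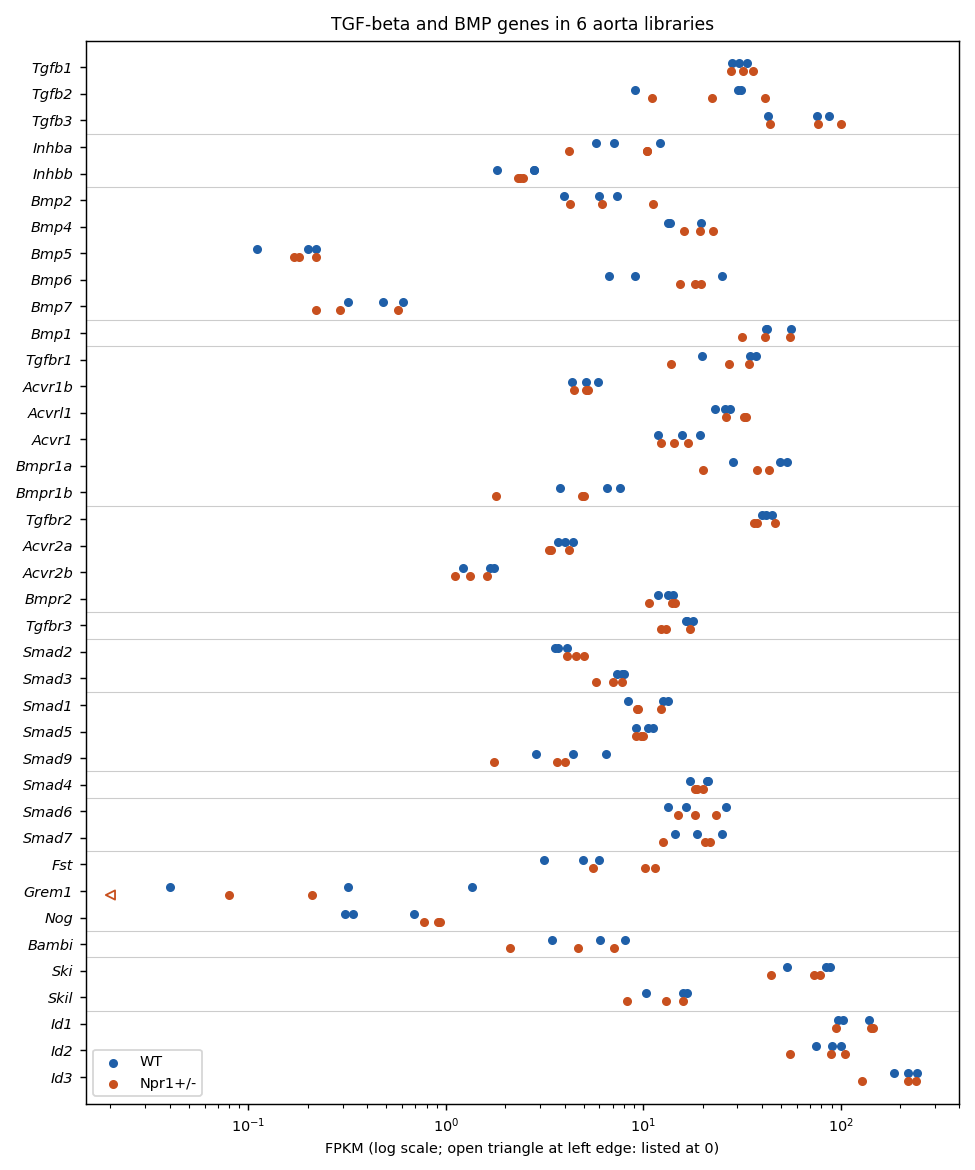
Each point is 1 aorta library, with FPKM on a log axis, the 39 genes from top to bottom in the order of their roles (grey lines part the roles), WT in blue and Npr1+/- in orange. Id3, Id1 and Id2 lie furthest to the right, Bmp5, Bmp7, Nog and Grem1 lie furthest to the left, and within most genes the colours overlap.

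Among the 5 BMP ligands listed, mRNA consisted mainly of Bmp4 and Bmp6, with Bmp2 next by mean WT level. In WT 2, Bmp2 had a larger share of their summed FPKM (26.2%) than Bmp6 (23.9%). Bmp4, a BMP made in the vessel wall, was at 13.6, 13.4 and 19.6 FPKM in WT 1, 2 and 3 and at 16.05, 19.3 and 22.5 FPKM in Npr1+/-. It was higher in Npr1+/- in every pair, at 124%, 152% and 109% of the WT level in TMM-normalised CPM, although the groups overlapped. Its log2 fold change was 0.32 ± 0.21 (SE; edgeR unadjusted p = 0.178, adjusted p = 0.999). With the block it was 0.34 ± 0.13 (edgeR unadjusted p = 0.0356, adjusted p = 0.357). Without the pair numbered 2, that unadjusted p was 0.319. Without the block, the value ran from 0.20 without WT 2 to 0.54 without WT 3. Bmp6, known as the inducer of hepcidin in the liver, was the most uneven ligand in WT, at 9.12, 6.71 and 25.04 FPKM, and lay at 18.3, 19.6 and 15.4 FPKM in Npr1+/-. WT 3 was above and WT 1 and 2 below every Npr1+/- library. The log2 fold change of Bmp6 was 0.38 ± 0.49 (edgeR unadjusted p = 0.472, adjusted p = 0.999) and 0.62 ± 0.40 with the block (edgeR unadjusted p = 0.166). It ran from 0.04 without WT 2 to 1.18 without WT 3. In the paired fit it was 0.12 without the libraries numbered 2 and 1.32 without those numbered 3, and the latter passed the adjusted test (edgeR adjusted p = 0.0490), in a fit chosen after seeing the data that called 0.355% of all genes. Bmp2 was at 5.77 ± 1.69 FPKM in WT and 7.24 ± 3.63 FPKM in Npr1+/-, and the higher mean rested on the library Npr1+/- 2: without it the log2 fold change was -0.14. Bmp5 and Bmp7 were below 1 FPKM in each library. Bmp1 is not a BMP ligand but a protease that cuts procollagen and the antagonist chordin, and it was at 46.8 ± 7.90 FPKM in WT and 42.8 ± 12.1 FPKM in Npr1+/-.

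Of the 11 receptors and co-receptors, 10 had a negative log2 fold change, with a median of -0.14, and none passed the adjusted test. Of the 10 TGF-beta, activin and BMP ligands, 7 had a positive one, with a median of 0.10. Over all tested genes, the median was 0.01. Smooth muscle and fibroblast markers were on the same side as the receptors: 0 of 7 smooth muscle markers had a positive fold change (median -0.21), as did 1 of 6 fibroblast markers (median -0.35), and none passed the adjusted test. Other marker lists with a negative median were leukocytes (-0.12), cardiac muscle (-0.25) and erythroid cells (-0.26), and the remaining lists had a positive one. The part of these cell types in the receptor values was not tested. Bmpr1a, the broadly expressed type I receptor for BMP2 and BMP4, was at 28.5, 49.1 and 53.5 FPKM in WT and at 20.1, 43.6 and 37.6 FPKM in Npr1+/-. Each Npr1+/- library was below its WT counterpart (74.0%, 91.7% and 66.6% of it). The difference between libraries of 1 genotype was larger: library 1 was 0.86 below the mean of libraries 2 and 3 in WT and 0.94 below it in Npr1+/-, on a log2 CPM scale. Between genotypes the log2 fold change was -0.37 ± 0.35 without the block and -0.38 ± 0.14 with it (edgeR unadjusted p = 0.0281, adjusted p = 0.333). With 1 pair left out, the unadjusted p was under 0.05 in 1 of 3 blocked fits and ran up to 0.105. Without the block, the value ran from -0.61 without Npr1+/- 2 to -0.13 without Npr1+/- 1.

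Bmpr1b, a second type I receptor for BMPs, had the lowest log2 fold change of the 38 tested members. It was at 3.77, 6.56 and 7.64 FPKM in WT and at 1.79, 4.91 and 5.04 FPKM in Npr1+/-, or 49.8%, 77.1% and 62.8% of the WT level in the 3 pairs. The groups overlapped because WT 1 lay below Npr1+/- 2 and 3. Without the block the log2 fold change was -0.62 ± 0.43 (edgeR unadjusted p = 0.198, adjusted p = 0.999), and with the block it was -0.67 ± 0.15 (edgeR unadjusted p = 0.0024, adjusted p = 0.150). When each pair was left out in turn, the blocked value lay between -0.84 and -0.52, with an unadjusted p of 0.0117 or less. Without the block and with single libraries left out, it ran from -0.87 without WT 1 to -0.29 without Npr1+/- 1, and the unadjusted p ran from 0.0883 to 0.443.

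Acvrl1, the ALK1 receptor of endothelial cells for BMP9 and BMP10, was the single receptor with a positive fold change. It was at 23.2, 26.04 and 27.5 FPKM in WT and at 26.2, 33.2 and 32.5 FPKM in Npr1+/-, where library 1 was again the lowest of each genotype. Its log2 fold change was 0.27 ± 0.15 (edgeR unadjusted p = 0.116), and with the block it was 0.26 ± 0.11 (edgeR unadjusted p = 0.0466, adjusted p = 0.392). Without the pair numbered 2, that unadjusted p was 0.316. The endothelial marker list described above was also higher in Npr1+/-, with a median log2 fold change of 0.62 over its 8 genes. Within a genotype the order of libraries differed. The endothelial sum was highest in Npr1+/- 1 (382 FPKM against 280 and 276 in Npr1+/- 2 and 3), where Acvrl1 was lowest. In WT that sum was lowest in WT 2 (149 FPKM). The part of endothelial RNA in the Acvrl1 value was not tested. The Acvrl1 gene lies at chr15:101128522-101145336 (GRCm38).

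Tgfbr1, the type I receptor for TGF-beta, was at 30.7 ± 9.44 FPKM in WT and 25.2 ± 10.4 FPKM in Npr1+/-, with library 1 lowest in both. Its log2 fold change was -0.29 ± 0.38. Tgfbr2, the type II receptor with the highest level, was at 44.8, 40.0 and 41.8 FPKM in WT and at 46.4, 36.6 and 37.8 FPKM in Npr1+/-, and was highest in library 1 of both genotypes. The 4 type II receptors together summed to 56.4 to 61.7 FPKM in all 6 libraries. By contrast, the 6 type I receptors summed to 91.7 FPKM in WT 1 and 78.6 FPKM in Npr1+/- 1 and to 122 to 151 FPKM in the others. Tgfbr3, the co-receptor betaglycan, was at 17.1 ± 0.76 FPKM in WT and 14.2 ± 2.70 FPKM in Npr1+/-. Bmpr2, whose loss of function causes inherited pulmonary hypertension, was at 13.1 ± 1.19 FPKM in WT and 13.03 ± 2.08 FPKM in Npr1+/-. The activin receptors were low by comparison. Acvr1b, a type I receptor, was at 5.15 ± 0.78 FPKM in WT and 4.94 ± 0.43 FPKM in Npr1+/-, and the type II receptors Acvr2a and Acvr2b were at 4.05 ± 0.36 and 1.55 ± 0.29 FPKM in WT and at 3.66 ± 0.50 and 1.35 ± 0.25 FPKM in Npr1+/-. Acvr1, the BMP type I receptor ALK2, was at 15.6 ± 3.69 FPKM in WT and 14.5 ± 2.29 FPKM in Npr1+/-.

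**Figure D2:**
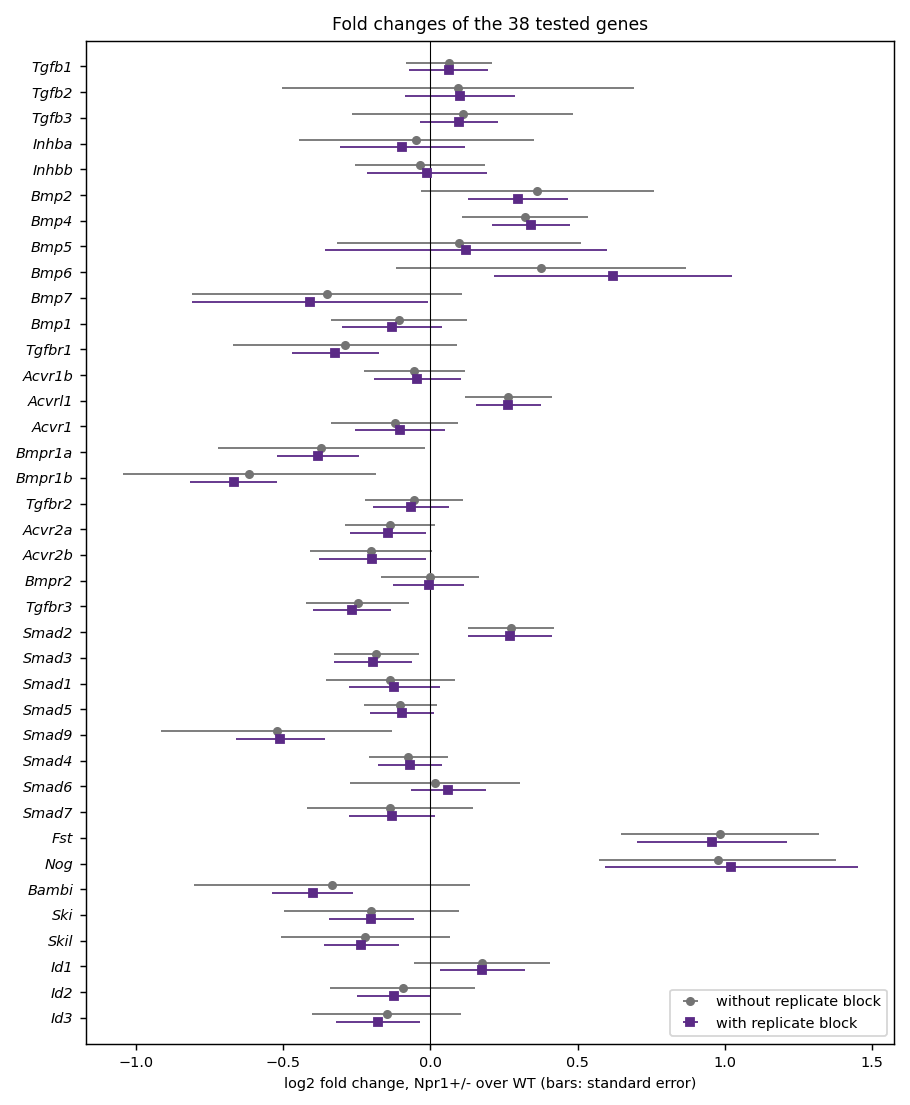
The log2 fold change of Npr1+/- over WT is plotted for the 38 tested genes, with bars of 1 standard error, in grey circles without and purple squares with the library number as a block. Most points lie within 0.5 of the line at 0, the receptors lie mostly to its left, Fst and Nog lie near 1, and the block shortens the bars of Tgfb2, Tgfb3, Bmpr1a, Bmpr1b, Smad9 and Bambi.

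Receptor Smads of the TGF-beta arm were even across the series. Smad3 was at 7.79, 8.0 and 7.34 FPKM in WT and at 7.79, 5.80 and 7.07 FPKM in Npr1+/-, and Smad2 and Smad3 summed to 10.4 to 12.8 FPKM in every library. Smad2, at 3.80 ± 0.28 FPKM in WT and 4.56 ± 0.46 FPKM in Npr1+/-, was the single receptor Smad with a positive log2 fold change, of 0.27 ± 0.15 (edgeR unadjusted p = 0.105). The BMP arm differed more between libraries. Smad1, its receptor Smad with the highest mean level, was at 8.39, 13.3 and 12.5 FPKM in WT and at 9.38, 12.3 and 9.31 FPKM in Npr1+/-. Smad5 was at 10.3 ± 1.03 FPKM in WT and 9.64 ± 0.41 FPKM in Npr1+/-.

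Smad9, the least abundant of the 3 BMP receptor Smads, was at 2.86, 4.39 and 6.50 FPKM in WT and at 1.76, 3.65 and 4.00 FPKM in Npr1+/-. Each Npr1+/- library was below its WT counterpart, at 66.8%, 87.0% and 59.5%, and library 1 was the lowest of both genotypes. Without the block the log2 fold change was -0.52 ± 0.39 (edgeR unadjusted p = 0.226), and with the block it was -0.51 ± 0.15 (edgeR unadjusted p = 0.0105, adjusted p = 0.244). Without the pair numbered 3 the unadjusted p of the blocked fit was 0.0601. Without the block, the value ran from -0.78 without WT 1 to -0.17 without WT 3.

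Smad4, the shared partner, was at 20.0 ± 2.30 FPKM in WT and 19.0 ± 0.93 FPKM in Npr1+/-. The inhibitory Smads, themselves targets of the pathway, had levels close to that of Smad4. Smad7 was at 14.5, 18.7 and 24.95 FPKM in WT and at 12.6, 21.8 and 20.7 FPKM in Npr1+/-, and Smad6 was at 18.7 ± 6.68 FPKM and 18.9 ± 4.19 FPKM. Neither differed by more than the spread within a genotype.

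Follistatin, encoded by Fst, binds activins and keeps them from their receptors. Fst was at 5.94, 4.98 and 3.16 FPKM in WT 1, 2 and 3 and at 11.5, 5.55 and 10.2 FPKM in Npr1+/-, so that Npr1+/- 1 and 3 lay above all WT libraries while Npr1+/- 2 lay below WT 1. In pairs, Npr1+/- was at 201%, 115% and 316% of WT. The log2 fold change was 0.98 ± 0.34 without the block (edgeR unadjusted p = 0.0236, adjusted p = 0.999) and 0.96 ± 0.26 with it (edgeR unadjusted p = 0.0065, adjusted p = 0.211). It stayed between 0.74 and 1.23 when single libraries were left out, with an unadjusted p of up to 0.0802. Fst was 1 of 5 members that were highest in library 1 of both genotypes, as the fat marker sums were, and the part of adherent tissue in its value was not tested. Without both libraries numbered 1 its log2 fold change was 0.96. Fst lies at chr13:114452262-114458989.

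Noggin, encoded by Nog, binds BMPs. Nog was at 0.31, 0.69 and 0.34 FPKM in WT and at 0.94, 0.91 and 0.78 FPKM in Npr1+/-, which corresponded to 8, 21 and 11 counts and to 26, 28 and 23 counts. It was the single member whose groups did not overlap, which is 2.63% of 38 members, against 7.48% of all tested genes (3.9% with higher and 3.58% with lower values in Npr1+/-). The log2 fold change was 0.98 ± 0.40 (edgeR unadjusted p = 0.0478, adjusted p = 0.999) and 1.02 ± 0.43 with the block (edgeR unadjusted p = 0.0469, adjusted p = 0.392). Without the block it lay between 0.77 and 1.41 with single libraries left out, while the unadjusted p ran up to 0.146. With 1 pair left out, the edgeR unadjusted p of the blocked fit was under 0.05 in 0 of 3 fits and ran from 0.0555 to 0.199. With 28 counts or fewer per library, the depth behind these values was low. Nog lies at chr11:89300638-89302559.

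Grem1, the remaining secreted antagonist and also a BMP binder, had too few counts to be tested. It was at 0.32, 1.36 and 0.04 FPKM in WT and at 0.21, 0 and 0.08 FPKM in Npr1+/-, from 7, 38 and 1 counts and 5, 0 and 2 counts. A single WT library held most of its counts.

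Bambi, a pseudoreceptor that lacks the kinase domain, was at 3.47, 8.11 and 6.07 FPKM in WT and at 2.12, 7.11 and 4.69 FPKM in Npr1+/-. Library 1 was 1.03 below the other two in WT and 1.38 below them in Npr1+/- on the log2 scale, more than the difference between genotypes. Between genotypes it was -0.34 ± 0.47 (edgeR unadjusted p = 0.499) and -0.40 ± 0.14 with the block (edgeR unadjusted p = 0.0215, adjusted p = 0.308). With 1 pair left out, the unadjusted p of the blocked fit was under 0.05 in 1 of 3 fits and ran up to 0.104. Without the block, the value ran from -0.80 without Npr1+/- 2 to -0.0067 without Npr1+/- 1.

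**Figure D3:**
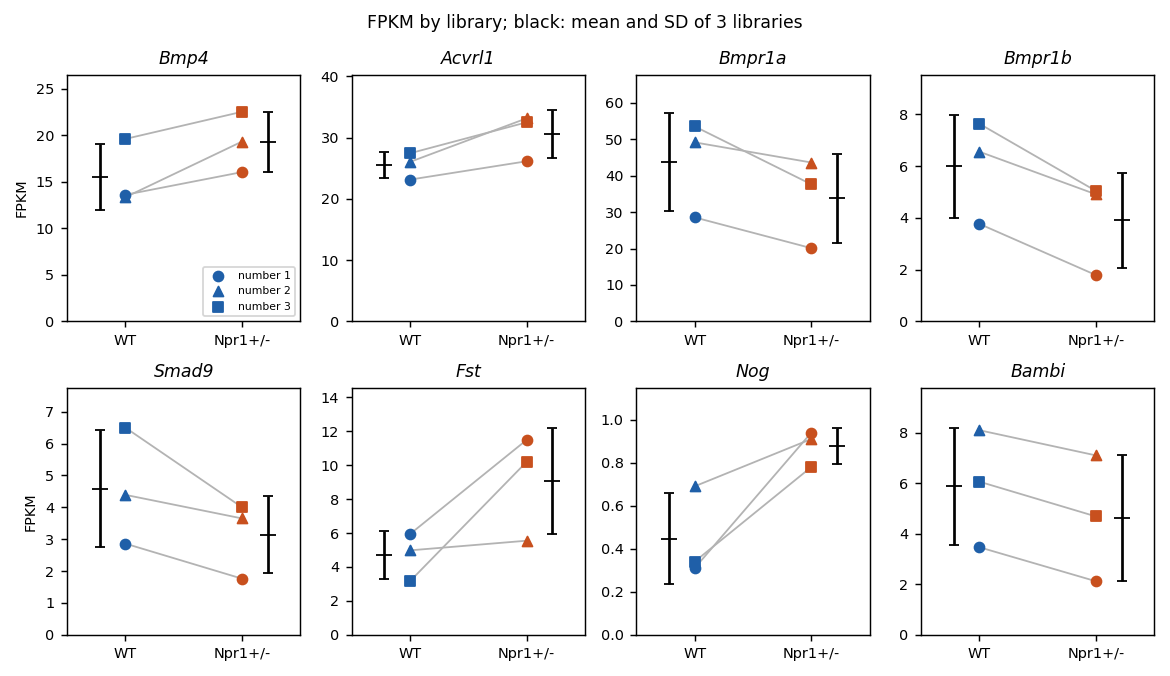
FPKM of the 8 members with an unadjusted p under 0.05 in either edgeR fit is plotted by genotype, with grey lines joining libraries of the same number and black bars for the mean and SD of 3 libraries. Each line goes up from WT to Npr1+/- for Bmp4, Acvrl1, Fst and Nog and down for Bmpr1a, Bmpr1b, Smad9 and Bambi, while the circles of library 1 lie lowest in both genotypes for Acvrl1 and all of the latter.

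In the nucleus, Ski and Skil hold Smad complexes inactive. Ski was at 53.5, 84.2 and 88.8 FPKM in WT and at 44.6, 78.4 and 73.5 FPKM in Npr1+/-, and was lower in Npr1+/- in each pair with a log2 fold change of -0.20 ± 0.30. Skil was at 14.4 ± 3.47 FPKM in WT and 12.4 ± 3.84 FPKM in Npr1+/-. The Id genes, BMP targets that block basic helix-loop-helix factors, were the most abundant members. Id3 was at 187, 220 and 245 FPKM in WT and at 129, 219 and 240 FPKM in Npr1+/-, and libraries 2 and 3 of the genotypes were nearly level. Its log2 fold change was -0.15 ± 0.25, that of Id1 was 0.17 ± 0.23 and that of Id2 was -0.09 ± 0.25. The 3 differences had unlike signs, and each was below its SE. With the block the log2 fold changes were 0.18 ± 0.14 for Id1, -0.12 ± 0.13 for Id2 and -0.18 ± 0.14 for Id3, and the smallest unadjusted p was 0.246 (edgeR, Id3).

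By mean WT FPKM the order from the top was Id3 (217 ± 29.3), Id1 (113 ± 23.3), Id2 (88.8 ± 12.7), Ski (75.5 ± 19.2) and Tgfb3 (68.7 ± 23.0), followed by Bmp1, Bmpr1a, Tgfbr2, Tgfbr1 and Tgfb1. Id3 was above Id1 by more than their SDs, whereas the neighbours Id2, Ski and Tgfb3 were within theirs. In all, 23 members had a mean WT level above 10 FPKM and 4 were below 1 FPKM.

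For most members, low and high levels went with the number of the library. Library 1 was the lowest of its genotype in both WT and Npr1+/- for 23 of 38 members (60.5%), against 29.9% of all tested genes. It was the highest in both for 5 members (13.2%), Bmp5, Bmp7, Tgfbr2, Tgfbr3 and Fst, against 28.6% of all genes. Tgfb2 was 1.78 below the mean of libraries 2 and 3 in WT and 1.42 below it in Npr1+/- on the log2 scale, and Tgfb3 was 0.94 and 0.95 below. These were the libraries in which smooth muscle marker sums were low and fat marker sums high, and the part of tissue makeup in the members' values was not tested.

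**Figure D4:**
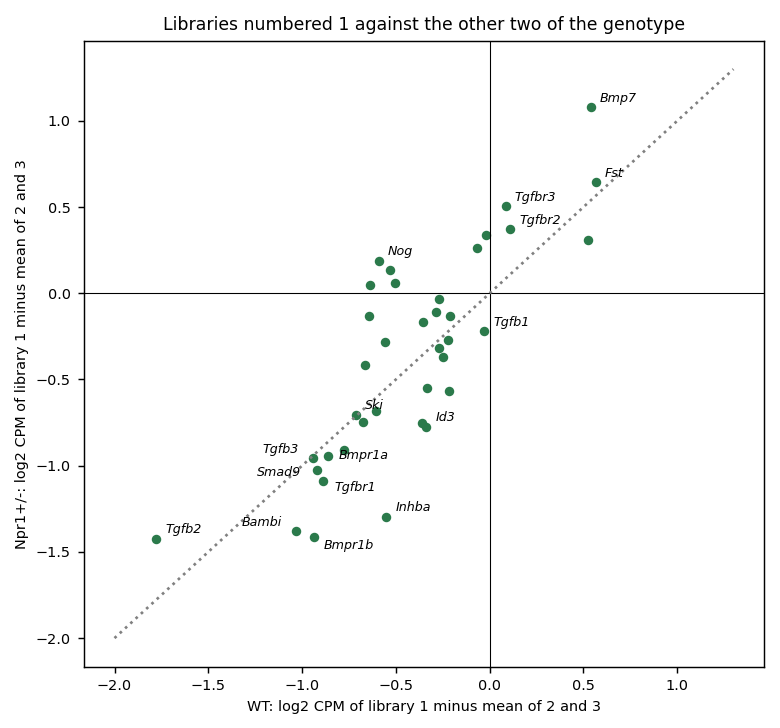
For each of the 38 tested genes, log2 CPM of library 1 minus the mean of libraries 2 and 3 is plotted for WT (horizontal axis) and Npr1+/- (vertical axis), with a dotted line of equal values. Most genes lie in the lower left, with Tgfb2 at -1.78 and -1.42, and Fst and Bmp7 lie in the upper right.

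Read by pairs, 4 members were higher in Npr1+/- in all 3 pairs (Bmp4, Acvrl1, Fst and Nog), against 17.5% of all genes, and 7 were lower in all 3 (Bmp7, Bmpr1a, Bmpr1b, Acvr2a, Smad9, Bambi and Ski), against 16.9%. As shares of 38 members these are 10.5%, below the background, and 18.4%, close to it. Without both libraries numbered 1, the groups of 2 did not overlap for 16 members (42.1%), against 44.7% of all genes in either direction. Of the 16, 13 were lower and 3 higher in Npr1+/-. The share of all genes in each direction was not counted, so this split has no background beside it. Of the 38 tested members, 25 had a negative and 13 a positive log2 fold change (34.2% positive, against 51.6% of all genes), with a median of -0.09, and 34 lay within 0.5 of 0.

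The wider pathway was read from a further list of 99 ligands, receptors, latency proteins, antagonists, regulators and targets, of which 96 were in the table and 79 were tested. None passed the adjusted test in edgeR with or without the block or in DESeq2. At an unadjusted p under 0.05 there were 2 of 79 (2.53%, against 2.96% of all genes). With the block there were 13 (16.5%, against 12.4% of all genes). Of these, 7 were higher (7.36% of all genes were) and 6 lower in Npr1+/- (5.09% of all genes were). Among the 5 receptors and co-receptors tested in this wider list, 3 had a negative and 2 a positive log2 fold change without the block. Bmp3, a BMP that opposes other BMPs, was at 3.61, 4.63 and 4.38 FPKM in WT and at 1.72, 3.25 and 2.78 FPKM in Npr1+/-, without overlap, with a log2 fold change of -0.70 ± 0.24 (edgeR unadjusted p = 0.0254, adjusted p = 0.999). Sostdc1, a secreted antagonist of BMP and Wnt, was at 0.68, 0.36 and 0.21 FPKM in WT and at 3.33, 0.68 and 1.42 FPKM in Npr1+/-. Its log2 fold change was 2.16 ± 0.71 (edgeR unadjusted p = 0.0202, adjusted p = 0.999), from few counts.

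Together with Fst and Nog, 16 secreted antagonists and modulators were tested, of which 8 had a positive and 8 a negative fold change. The 3 of 16 with an unadjusted p under 0.05 in edgeR were Sostdc1 and the members Fst and Nog already counted above. All 3 had higher values in Npr1+/-, against 2.96% of all genes in either direction and 1.88% with higher values. Sostdc1, like Fst, was highest in library 1 of both genotypes, and the part of adherent tissue in its value was not tested. With the block there were 7 of 16, of which 5 were higher and 2 lower (Fstl1 and Twsg1), against 12.4% of all genes, 7.36% higher and 5.09% lower.

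Acvr1c, the ALK7 receptor that adipocytes carry, was the 1 gene of the wider list called by DESeq2 with the block (adjusted p = 0.00119). In that fit 1.46% of all genes were called. Acvr1c was at 4.72, 0.90 and 0.76 FPKM in WT and at 7.52, 1.91 and 1.86 FPKM in Npr1+/-. The libraries with high Acvr1c were those with high white fat marker sums, which were also higher in Npr1+/- in each pair, and the part of fat in the Acvr1c value was not tested.

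**Figure D5:**
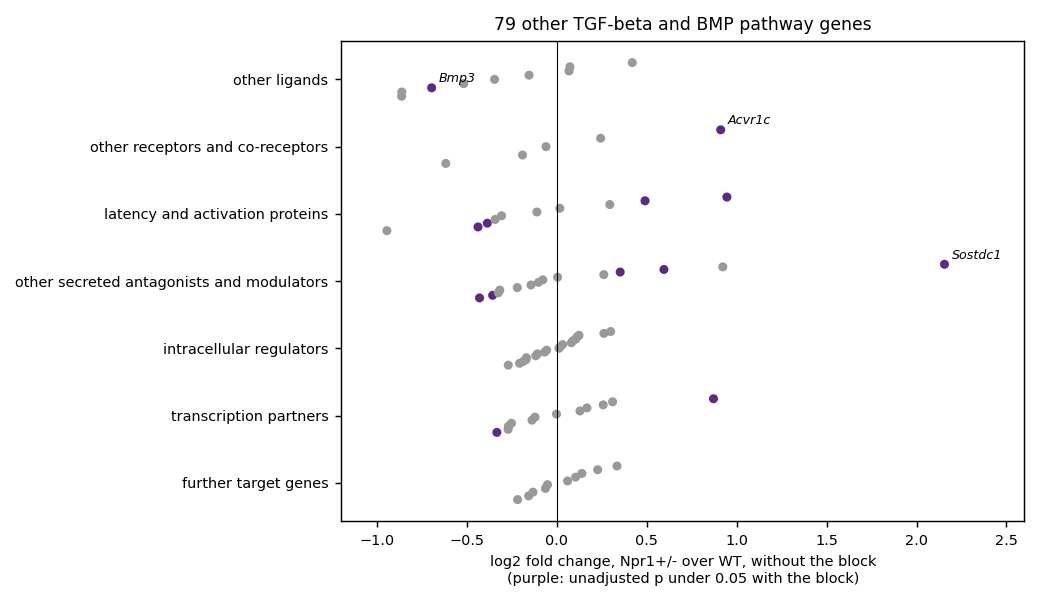
The log2 fold change of Npr1+/- over WT in the fit without the block is plotted for the 79 tested genes of the wider list, 1 point per gene, in rows by role, with purple for an unadjusted p under 0.05 with the block. Points of each role lie on both sides of 0, and the genes named are Bmp3, Acvr1c and Sostdc1.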

How the data were processed

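RNA of whole aorta from male mice was sequenced by the authors, in 3 WT and 3 Npr1+/- libraries. Per the labels, the processing notes name Bowtie2, RSEM, DESeq2 (version 1.4.5) and the mm10 build. The deposited table gives RSEM expected counts and FPKM per gene and library, and both were used. Expected counts were rounded to whole numbers and FPKM, which is per transcript length, was used to compare levels between genes. Its columns headed Knockdown were read as Npr1+/- by number, its columns of group averages were not used, and NCBI gene numbers gave a symbol for 18070 of 18191 genes. Nothing in the labels says whether libraries of a genotype came from separate animals, so p-values measure the spread between these libraries.

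Genes that passed edgeR's filterByExpr with a minimum count of 10 (13938) were tested with edgeR 4.0.16 (TMM, quasi-likelihood, R 4.3.3) over all genes with Benjamini-Hochberg adjustment, and a call needed a log2 fold change of 0.5 or more in either direction beside an adjusted p below 0.05. Overlap of groups was read from TMM-normalised CPM, with a prior count of 2 for values on the log2 scale. Alternatives were DESeq2 1.42.0, its size factors, no filter, limma 3.58.1 on log2(FPKM + 0.1) or log2(FPKM + 1) for genes with a mean of at least 0.1 FPKM, the library number as a block, and each library left out. Fits without both libraries of a number, DESeq2 with the block and the block with DESeq2 size factors were chosen after seeing the data. The scripts were tested on simulated data. Deviations from the genotype means correlated by 0.64, 0.39 and 0.24 between the same-numbered libraries 1, 2 and 3. The numbers were therefore treated as pairs, although the labels state no shared batch or litter. WT 3 correlated more with Npr1+/- 2 (0.44) than with Npr1+/- 3, and WT 2 correlated with Npr1+/- 3 by 0.37. The correlations thus matched the libraries numbered 1 but did not tell how libraries 2 and 3 pair, which rests on their numbers.

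All 39 members are named. Every library's value is given for members without overlap, with an unadjusted p under 0.05 in either edgeR fit, or with the highest level of their role. Of the wider list, called genes or those with an unadjusted p under 0.05 are named, and Acvr1c was named after its DESeq2 value was seen. The members and lists were chosen with earlier results of these data known. Beside the lists above, marker sums in FPKM were 951 to 1548 in WT and 916 to 1264 in Npr1+/- for fibroblasts, 94.7 to 231 and 106 to 161 for leukocytes, 302 to 2179 and 601 to 2121 for brown fat, 67.9 to 82.3 and 69.0 to 329 for neurons, 114 to 130 and 107 to 201 for Schwann cells, 15.5 to 25.3 and 15.6 to 20.6 for cardiac muscle, 3.16 to 5.12 and 5.21 to 5.46 for skeletal muscle, 28.7 to 78.9 and 63.4 to 94.6 for lymphatic endothelium, 0.31 to 0.47 and 0.35 to 2.81 for mesothelium, and 646 to 7755 and 738 to 6257 for erythroid cells.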

Additional observations from a re-analysis of the deposited data

How the results depend on the processing

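No member was called in edgeR, DESeq2 or limma under any alternative described above, or in the edgeR fit with no fold threshold or at an adjusted p under 0.1, and Bmp6 was called only when both libraries numbered 3 were left out of the blocked fit. The 2 members with an unadjusted p under 0.05 became 1 in DESeq2 and 1 without the filter, 8 with the replicate block, 4 in DESeq2 with the block, and 0 to 3 with single libraries left out. Without both libraries numbered 1 there were 7. Of all tested genes, 2.96% were under 0.05 in edgeR without the block and 12.4% with it. Shares for the other fits are not given here, so their counts are not read as a result about the members. The count of 8 in the blocked fit became 4 without the libraries numbered 1, and of the 8 only Bmpr1b, Smad9 and Fst were among them. In edgeR the pairing changed no other call. The 1 member without overlap became 1 (2.63%, against 11.1% of all genes, without WT 2) to 11 (28.9%, against 33.1%, without WT 1) with single libraries left out and 16 (42.1%, against 44.7%) without both libraries numbered 1. The 0 calls of the wider list became 1 in DESeq2 with the block, where 1.46% of all genes were called. The median log2 fold change of the members stayed negative, from -0.19 to -0.01, and 9 of the 10 most abundant members were the same when ranked over all libraries.

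Log2 fold changes changed sign when single libraries were left out for 16 members, with ranges of -0.0420 to 0.135 for Tgfb1, -0.49 to 0.44 for Tgfb2, -0.19 to 0.36 for Tgfb3, -0.25 to 0.26 for Inhba, -0.22 to 0.0759 for Inhbb, -0.14 to 0.62 for Bmp2, -0.16 to 0.31 for Bmp5, -0.32 to 0.0453 for Bmp1, -0.17 to 0.0685 for Acvr1b, -0.29 to 0.0698 for Acvr1, -0.21 to 0.0049 for Tgfbr2, -0.10 to 0.10 for Bmpr2, -0.19 to 0.35 for Smad6, -0.32 to 0.11 for Smad7, -0.27 to 0.10 for Id2 and -0.30 to 0.0528 for Id3. Without both libraries numbered 1 the value was 0.10 for Inhba, 0.0330 for Bmpr2, -0.0564 for Smad6 and 0.0045 for Id2, and with DESeq2 size factors it was 0.0038 for Bmpr2. The cause was not tested.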
